A study of Mus musculus with 12 samples.

Results

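The 10 genes described here, Lrat, Reln, Des, Acta2, Dcn, Pdgfrb, Hgf, Lum, Vim and Tgfb1, are used as markers of hepatic stellate cells. They were chosen by symbol, as the rows of the expression table whose Ensembl identifier belongs to one of these names, and all 10 were found among the 27022 genes of the table. The data are read counts from the liver of 6 female SJL/J mice. The control mice (n = 3) were fed AIN-93G with 50 ppm iron, and the feed of the iron-loaded mice (n = 3) held 2% carbonyl iron. All mice ate the control feed from their arrival at the age of 3 weeks, the iron-loaded mice were switched to their feed at 6 weeks, and all were perfused with PBS when tissue was taken at 11 weeks. RNA was taken from 20 mg of the large liver lobe of each mouse and went into 1 Trad-KAPA library (KAPA Stranded mRNA-Seq, reads from the whole transcript) and 1 3’-LEXO library (Lexogen QuantSeq 3’ FWD, reads from the 3’ end), 12 libraries in all. Each diet was given in a cage of its own, and the effects of cage and diet cannot be told apart. The labels name no transgene, deletion or drug, and both groups are of the same inbred strain.

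Hepatic stellate cells lie between the hepatocytes and the sinusoidal endothelium and store vitamin A as retinyl esters in lipid droplets. After injury they can lose these droplets and become contractile, matrix-producing myofibroblasts, and TGF-beta and PDGF are known signals for this change. They also secrete growth factors such as HGF, which acts on hepatocytes through the receptor Met. A whole liver piece holds mostly hepatocyte RNA, and in bulk samples fewer cells of a type and less RNA per cell cannot be told apart.

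All 10 genes had reads in every library, with 24 counts (Tgfb1 in 3’-LEXO) as the lowest and 4650 (Dcn in 3’-LEXO) as the highest. All levels below are in CPM, a gene's reads relative to the library total. The sum over the 10 genes was 273 to 409.7 CPM on the control diet and 386 to 398 on the iron-loaded diet in Trad-KAPA. The 3’-LEXO sums were 479 to 509 and 437 to 489 CPM. The 6 hepatocyte markers, with albumin as the highest, summed to 139205 to 150172 CPM in the Trad-KAPA control libraries, so that the labelled tissue was liver by its markers and the stellate genes were a small part of its RNA. Several of the 10 genes are known from other cells too: Vim from endothelial and immune cells, Acta2 and Des from vascular smooth muscle, Tgfb1 from macrophages and Dcn and Lum from portal fibroblasts. Library totals ranged from 13834682 to 16553616 counts in Trad-KAPA and from 10724672 to 14104236 counts in 3’-LEXO. The closest libraries of one kit and diet were those of iron-loaded mice 2 and 3, and even these differed by more than counting noise (chi-square per degree of freedom 5.98 in Trad-KAPA and 5.97 in 3’-LEXO), so all were kept as separate samples. Iron-loaded mouse 1 was the farthest from its group, with chi-square values against iron-loaded mice 2 and 3 of 53.5 and 49.8 by Trad-KAPA, whose control pairs were at 18.5 to 19.9, and of 59.8 and 49.5 by 3’-LEXO, whose control pairs were at 25.8 to 35.9. Its hepatocyte marker sum was also low, at 110528 CPM against 146523 and 150971 in iron-loaded mice 2 and 3 in Trad-KAPA, and 43303 against 64198 and 62012 in 3’-LEXO. Without it Des and Hgf were still called between diets in Trad-KAPA and none of the 10 in 3’-LEXO. Control mouse 3 had the lowest control value for most of the 10 genes in Trad-KAPA, and some results without it are given below.

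In the 3’-LEXO method cDNA is copied from the 3’ end of the mRNA. Transcript ends are therefore shown for the 6 genes that differed between the kits and for Vim, which did not pass that test. These are the last 30 bases of the principal GENCODE M21 transcript of each gene, written 5’ to 3’ as DNA on the transcript strand, on GRCm38. Capitals mark a polyadenylation hexamer, AATAAA or ATTAAA, the signal that places the poly(A) tail.
Tgfb1 (Tgfb1-201, chr7:25705048-25705077, + strand): cctggggggcccATTAAAggtgacagagga
Hgf (Hgf-204, chr5:16620123-16620152, + strand): ttttactttgaaataatttttcaatgcaaa
Reln (Reln-207, chr5:21884454-21884483, - strand): gcttaAATAAAaaattatgtccaaaatcta
Lum (Lum-201, chr10:97572674-97572703, + strand): ttgatagcaaAATAAAacaatgaagctggc
Dcn (Dcn-202, chr10:97518114-97518143, + strand): tcactgtcatattgaaaaaAATAAAatttt
Des (Des-201, chr1:75368550-75368579, + strand): agaaatcaattgAATAAAatatgtatatgt
Vim (Vim-201, chr2:13582797-13582826, + strand): gttactgcttcAATAAAtcttcaaaaatac

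All of these lie in the 3’ UTR in the last exon. Among 21690 principal transcripts of the annotation, 51.2% held AATAAA in their last 30 bases, 11.4% held ATTAAA without it and 37.4% held neither, searched on the transcript strand alone. Lrat also held AATAAA, Pdgfrb held ATTAAA, and Acta2 and Hgf held neither. The base composition of the last 300 bases set 1 gene apart. It was 67.7% G or C in Tgfb1, at the 99.7th percentile of all transcripts, and between 25.7% and 45.3% in the other 9 genes, beside a median of 42.3%.

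The gene that makes the retinyl esters is Lrat, lecithin retinol acyltransferase (chr3:82892579-82903973, - strand). In Trad-KAPA it was at 20.4, 17.6 and 18.7 CPM in control mice 1, 2 and 3 and at 18.3, 21.5 and 20.4 in iron-loaded mice 1, 2 and 3. These ranges overlapped, and the edgeR quasi-likelihood test gave a log2 fold change of iron-loaded over control of 0.02 ± 0.13 (SE, n = 3 and 3, 95% interval -0.27 to 0.31) with a Benjamini-Hochberg adjusted p of 0.933. In 3’-LEXO the control libraries held 21.9, 21.3 and 26 CPM and the iron-loaded ones 17, 19.9 and 19.3. All 3 iron-loaded values were below all 3 control values there, but the difference did not pass the edgeR test (log2 fold change -0.36 ± 0.16, adjusted p = 0.202). Lrat had 212 to 367 counts per library, and its means were 18.9 ± 1.41 and 20.1 ± 1.65 CPM in Trad-KAPA (SD, n = 3).

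Reln encodes reelin, a large secreted glycoprotein that marks stellate cells and lymphatic endothelium in the liver (chr5:21884454-22344702, - strand). In Trad-KAPA the control libraries held 154, 148 and 83.5 CPM and the iron-loaded ones 114, 136 and 141. The third control library was the lowest of the 6 and the other two the highest, and the groups were not distinguishable (log2 fold change -0.04 ± 0.21, adjusted p = 0.921, edgeR). In 3’-LEXO the values were 78.2, 73.7 and 70.8 CPM on the control diet and 61.4, 55.8 and 56.8 on the iron-loaded diet. Here the libraries of a group were close together and the groups did not overlap, with the iron-loaded mice lower, yet the adjusted p stayed above 0.05 (log2 fold change -0.42 ± 0.13, adjusted p = 0.0834, edgeR). An antisense gene, Gm10475, shares 246 exonic bases with Reln and had 2 reads over all Trad-KAPA and 0 over all 3’-LEXO libraries.

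Of the 3 cytoskeletal genes, Des, Acta2 and Vim, only Des passed the test between diets. It encodes desmin, an intermediate filament protein of stellate and muscle cells (chr1:75360329-75368579, + strand). In Trad-KAPA it was at 7.85, 8.17 and 5.06 CPM on the control diet and 4.43, 4.24 and 4.02 on the iron-loaded diet. The iron-loaded libraries lay within a narrow range below all controls, and Des fell to 0.575 of the control level (log2 fold change -0.80 ± 0.20, adjusted p = 0.0301, edgeR). In 3’-LEXO the same RNAs gave 8.22, 7.66 and 5.96 CPM and 7.9, 6.06 and 7.27 CPM. The groups overlapped and the estimate was near 0 (log2 fold change -0.09 ± 0.19, adjusted p = 0.801, 95% interval -0.52 to 0.34, edgeR). Des had 56 to 130 counts per library, among the lowest of the 10 genes, and its call in Trad-KAPA was lost when control mouse 1, control mouse 2, iron-loaded mouse 2 or iron-loaded mouse 3 was left out (adjusted p up to 0.102, edgeR).

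Acta2 encodes alpha smooth muscle actin, the usual marker of activated stellate cells, which arterial smooth muscle also expresses (chr19:34241090-34255590, - strand). In Trad-KAPA it was at 7.67, 9.71 and 3.25 CPM in the control libraries and 4.5, 4.65 and 5.17 in the iron-loaded ones. The 3’-LEXO values were 12.1, 13.8 and 3.83 and 4.91, 8.86 and 5.0 CPM. In both kits control mice 1 and 2 were above every iron-loaded mouse and control mouse 3 was below every one of them. With all mice Acta2 did not pass the edgeR test (log2 fold change -0.59 ± 0.33, adjusted p = 0.244 in Trad-KAPA and log2 fold change -0.71 ± 0.41, adjusted p = 0.315 in 3’-LEXO). Without control mouse 3 it was called lower in Trad-KAPA (log2 fold change -0.90 ± 0.19, adjusted p = 0.0392) and not in 3’-LEXO (log2 fold change -1.09 ± 0.29, adjusted p = 0.102).

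Vim encodes vimentin, the main intermediate filament protein of mesenchymal cells (chr2:13573927-13582826, + strand). It was at 22.5, 22.6 and 12.6 CPM in Trad-KAPA control libraries and 24.1, 23.3 and 23.9 in iron-loaded ones. In 3’-LEXO it was at 21.4, 27.1 and 14.3 and 27.9, 23.5 and 23.4 CPM. Control mouse 3 again had the lowest value in both kits, and neither kit gave a difference past the test (log2 fold change 0.24 ± 0.19, adjusted p = 0.405 and log2 fold change 0.20 ± 0.20, adjusted p = 0.561, edgeR). Without that mouse the estimates were 0.03 in Trad-KAPA and 0.01 in 3’-LEXO.

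Dcn and Lum encode decorin and lumican, small leucine-rich proteoglycans that bind collagen fibrils, and the genes are neighbours on chromosome 10 (97479609 to 97518143 and 97565128 to 97572703, both on the + strand). Dcn was at 133, 120.3 and 108 CPM in the Trad-KAPA control libraries and 155, 136 and 138 in the iron-loaded ones. The groups did not overlap, but the difference was small and did not pass the test (log2 fold change 0.18 ± 0.10, adjusted p = 0.244, edgeR). In 3’-LEXO Dcn was at 298, 331 and 329.7 and 343, 318 and 295 CPM, with overlapping groups (log2 fold change -0.07 ± 0.14, adjusted p = 0.817). Lum was at 14.3, 12.7 and 6.79 and 14.6, 10.8 and 9.99 CPM in Trad-KAPA. The 3’-LEXO values were 9.57, 10.6 and 6.81 and 7.98, 5.87 and 6.45 CPM. Its groups overlapped in both kits, in 3’-LEXO only through control mouse 3, and it was not called in either (log2 fold change -0.01 ± 0.25, adjusted p = 0.986 and log2 fold change -0.46 ± 0.20, adjusted p = 0.198, edgeR).

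Of the genes of growth factor signalling, Hgf was the other one called between diets. It encodes hepatocyte growth factor (chr5:16553495-16620152, + strand). In Trad-KAPA it was at 13, 11.5 and 7.59 CPM on the control diet and 16.8, 21.8 and 20.3 on the iron-loaded diet. Every iron-loaded library was above every control library, and Hgf rose 1.76-fold (log2 fold change 0.81 ± 0.20, adjusted p = 0.0283, edgeR). In 3’-LEXO the values were 4.29, 4.29 and 4.4 and 5.14, 4.57 and 4.91 CPM. In CPM these groups did not overlap either, with the iron-loaded mice higher, but they were much closer. The test, which also scales the libraries by TMM, did not pass (log2 fold change 0.11 ± 0.20, adjusted p = 0.767, 95% interval -0.33 to 0.55, edgeR). Hgf had 105 to 319 counts per library in Trad-KAPA and 49 to 67 in 3’-LEXO. The 3’-LEXO separation rests on 60, 60 and 62 control reads against 67, 49 and 54, and holds for CPM without TMM scaling. The Trad-KAPA call was lost without control mouse 3 (log2 fold change 0.64 ± 0.18, adjusted p = 0.0722), and also without control mouse 2, iron-loaded mouse 2 or iron-loaded mouse 3 (adjusted p up to 0.0788, edgeR). A same-strand gene model, Gm43489, shares 484 exonic bases with Hgf and had 10 reads in all Trad-KAPA and 27 in all 3’-LEXO libraries.

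Pdgfrb, on chromosome 18, encodes the beta receptor for PDGF, which drives the division of stellate cells. It was at 19.6, 18.4 and 15 CPM in the Trad-KAPA control libraries and 15, 14.8 and 13.2 in the iron-loaded ones. The 3’-LEXO libraries held 23.7, 16.2 and 17.9 and 12, 14.1 and 16.1 CPM. All iron-loaded libraries were below all control libraries in both kits, but neither difference passed the edgeR test (log2 fold change -0.37 ± 0.12, adjusted p = 0.0744 and log2 fold change -0.52 ± 0.20, adjusted p = 0.143). Pdgfrb and Hgf were the 2 of the 10 genes whose groups were separate in CPM in the same direction in both kits. This was so for 22.8% of the 12229 genes tested in both, so the share is near the background. For Hgf in 3’-LEXO it rests on 49 to 67 reads per library without TMM scaling.

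Tgfb1 encodes the cytokine TGF-beta 1 (chr7:25687002-25705077, + strand). In Trad-KAPA it was at 17.5, 17.5 and 13 CPM on the control diet and 19, 21.6 and 22 on the iron-loaded diet. The iron-loaded libraries were all higher, and the difference did not pass the test (log2 fold change 0.32 ± 0.14, adjusted p = 0.149, edgeR). In 3’-LEXO it was at 2.21, 3.15 and 2.77 and 2.38, 2.24 and 3.09 CPM, from 24 to 44 reads per library. At this depth no diet difference of the size seen in Trad-KAPA could be told from 0 (log2 fold change -0.13 ± 0.28, adjusted p = 0.801, 95% interval -0.75 to 0.48).

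**Figure D1:**
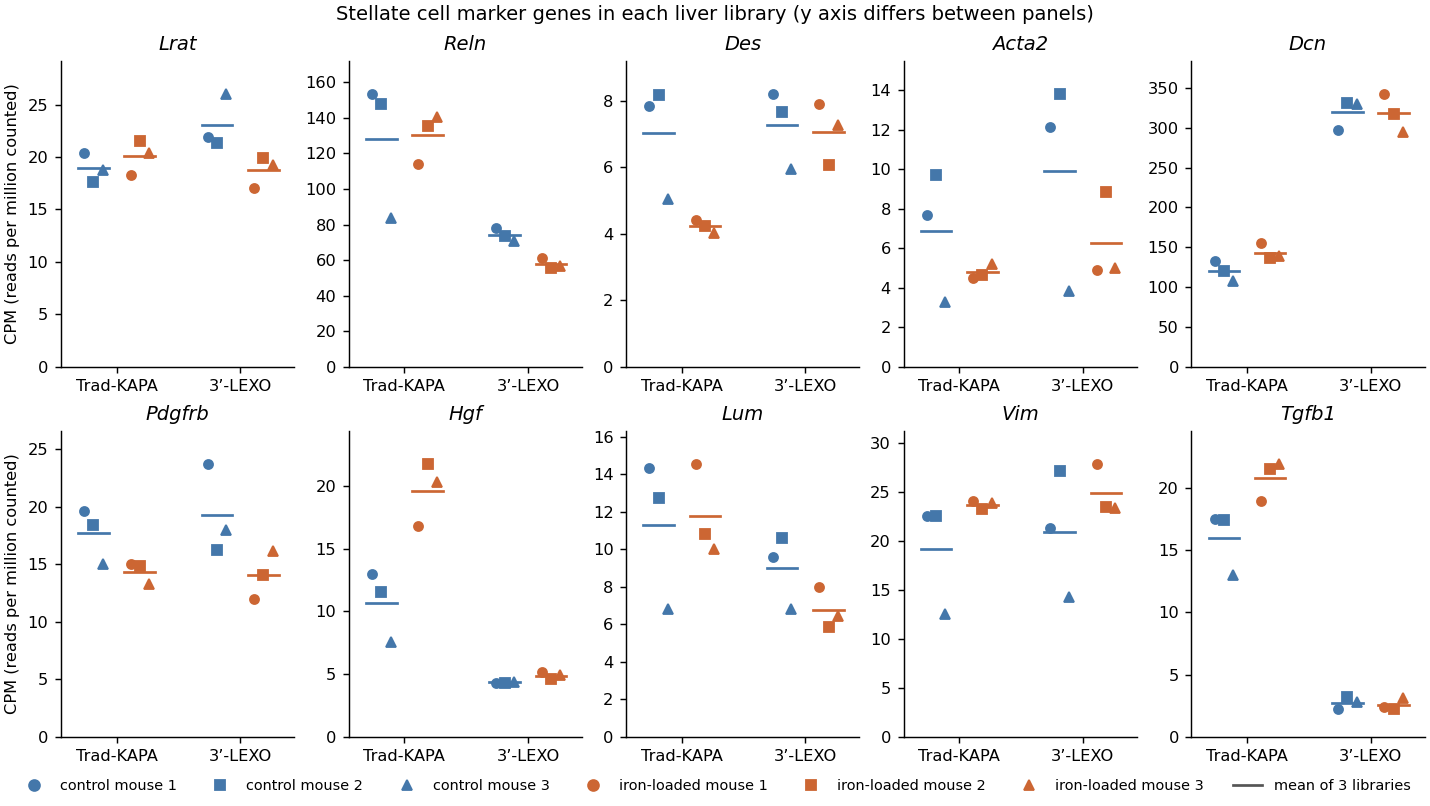
CPM of each gene in every library, with 1 panel per gene, the kits side by side, control mice in blue and iron-loaded mice in orange, a symbol per mouse number and a line at the mean of 3 libraries. The triangle of control mouse 3 is the lowest control point for 9 of the 10 genes in Trad-KAPA, and the iron-loaded points of Des and Hgf are clear of the controls there but close to or among them in 3’-LEXO.

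In all, 2 of the 10 genes were called between diets in Trad-KAPA (adjusted p below 0.05, edgeR), 1 higher and 1 lower, beside 17.1% of the 13151 genes tested (8.77% higher and 8.37% lower). In 3’-LEXO 0 of the 10 were called, beside 6.10% of 13301 genes (3.17% higher and 2.92% lower). None of the 10 was called in both kits, beside 5.23% of the 12229 genes tested in both. At an unadjusted p below 0.05 there were 3 in each kit, Des, Pdgfrb and Hgf in Trad-KAPA and Reln, Pdgfrb and Lum in 3’-LEXO, beside 34.3% and 25.0% of all genes tested, and DESeq2 gave 3 and 2. These shares are near those of all genes. In CPM, without TMM scaling, the groups did not overlap in 6 of the 10 genes with Trad-KAPA and in 4 with 3’-LEXO, beside 41.2% and 31.3% of all genes tested. Of these, 4 were higher and 2 lower on the iron-loaded diet in Trad-KAPA (24.7% and 16.6% of all genes), and 1 higher and 3 lower in 3’-LEXO (18.5% and 12.8%). The median log2 fold change of the 10 genes was 0.01 in Trad-KAPA, with 5 estimates on each side of 0, and that of all genes tested was 0.02, with 48.5% of their estimates below 0. In 3’-LEXO the median was -0.25, with 8 of the 10 estimates below 0, beside 0.01 and 48.7% for all genes tested.

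**Figure D2:**
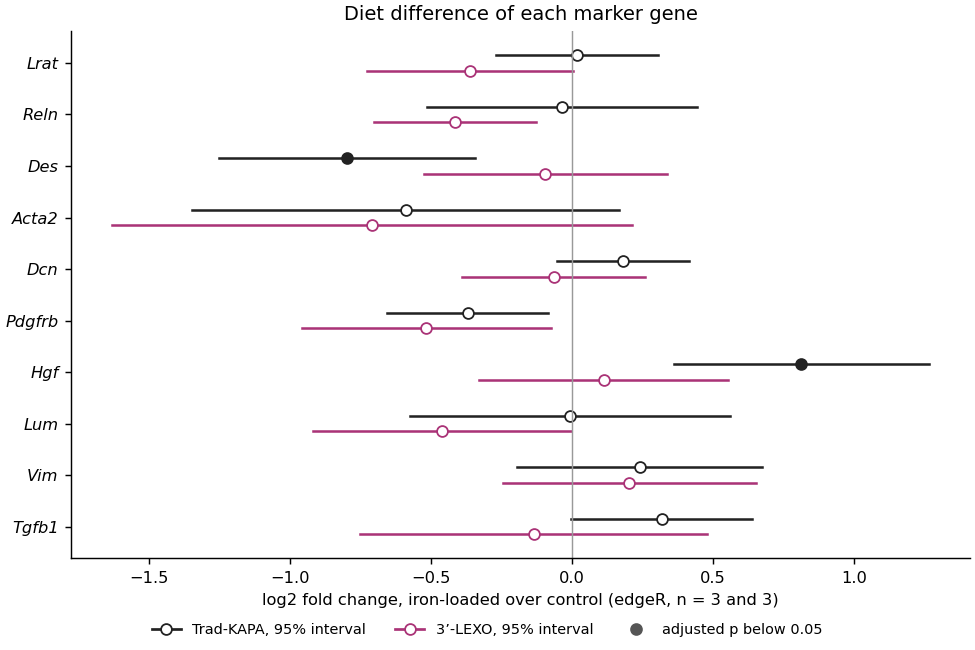
Log2 fold change of iron-loaded over control for each gene in Trad-KAPA (black) and 3’-LEXO (purple), with 95% intervals from edgeR and filled points where the adjusted p was below 0.05. Only Des and Hgf in Trad-KAPA are filled, and the intervals of Acta2, the gene with the widest spread, run from -1.35 to 0.17 and from -1.63 to 0.21.

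Des and Hgf were called in one kit and not in the other, so whether the kits differ in their response to diet was tested directly, with a diet by kit interaction term fitted to the 12 libraries. The diet effect of Des in 3’-LEXO minus that in Trad-KAPA was 0.70 ± 0.27 (unadjusted p = 0.021, adjusted p = 1) on the log2 scale. That of Hgf was -0.70 ± 0.27 (unadjusted p = 0.0219, adjusted p = 1). For the other 8 genes the difference lay between -0.46 (Tgfb1) and -0.04 (Vim), so that 9 of the 10 were below 0, beside 50.4% of all genes tested. Des and Hgf were the 2 of the 10 at an unadjusted p below 0.05, beside 2.79% of all genes tested. This count was 1 without control mouse 2, control mouse 3 or iron-loaded mouse 2, and 0 without iron-loaded mouse 3. The adjusted p rounded to 1 for all 10, and edgeR called 0 of 14384 genes (402 at an unadjusted p below 0.05, and DESeq2 0 and 390). With the mouse as a block, which the shared RNA allows, 5 other genes were called and none of the 10 (replicate block, adjusted p = 0.484 for Des and 0.525 for Hgf, edgeR). At an unadjusted p below 0.05 this blocked fit had 5 of the 10, Lrat, Reln, Des, Hgf and Lum, beside 7.13% of all genes tested. The ratio of the kits within a mouse was separate between the diets for 4 of the 10, higher in the iron-loaded mice for Des and lower for Lrat, Hgf and Lum, beside 11.8% of the 13438 tested genes with reads in all libraries. These counts describe the same data, and with adjustment over all genes the diet responses of the 10 genes are not shown to differ between the kits.

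Control mouse 3 stood apart in several of these values. In Trad-KAPA it had the lowest control value for 9 of the 10 genes, all but Lrat, beside 48.1% of all genes tested, and its ratio to the mean of control mice 1 and 2 had a median of 0.625. In 3’-LEXO it was the lowest for 5 of 10, beside 42.9%, with a median ratio of 0.915. The ratio was low in both kits for Acta2 (0.374 in Trad-KAPA and 0.295 in 3’-LEXO), Vim (0.558 and 0.588) and Lum (0.502 and 0.675). For Reln (0.554 and 0.932) and Hgf (0.619 and 1.02) it was low in Trad-KAPA alone. Without this mouse Trad-KAPA called Des (log2 fold change -0.96 ± 0.16, adjusted p = 0.0254, edgeR) and Acta2 but not Hgf, and 3’-LEXO called none. Calls changed without other mice too. In Trad-KAPA none of the 10 was called without control mouse 2, iron-loaded mouse 2 or iron-loaded mouse 3.

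Some lists for other cells also had their lowest or highest control value in this mouse. Its summed Kupffer cell list (7 genes) was 369 CPM in Trad-KAPA, the lowest of the controls (369 to 591), and its endothelial list (8 genes) was also the lowest (358 in a range of 358 to 470.4). In 3’-LEXO this mouse was the lowest control for both lists too. Its Kupffer sum was 874 CPM against 1144 and 978 in control mice 1 and 2, and its endothelial sum 370.1 against 444.9 and 450.2. The 5 red cell genes, the globins and Alas2, were highest there, at 151 CPM in Trad-KAPA against 20.1 and 66.8 in the other controls, although the livers were perfused. In 3’-LEXO they were at 1214 CPM against 162 and 416. Smooth muscle myosin, Myh11, was at 10.1, 11.7 and 2.6 CPM in control mice 1, 2 and 3 in Trad-KAPA and so shared the low value of Acta2. A list of 16 further stellate markers differed between the kits. Its sum in control mouse 3 was the lowest of the controls in Trad-KAPA, at 425 CPM against 556 and 507. In 3’-LEXO it was the highest of them, at 811 CPM against 753 and 678. The part of blood or of the lobe piece taken in these values was not tested.

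**Figure D3:**
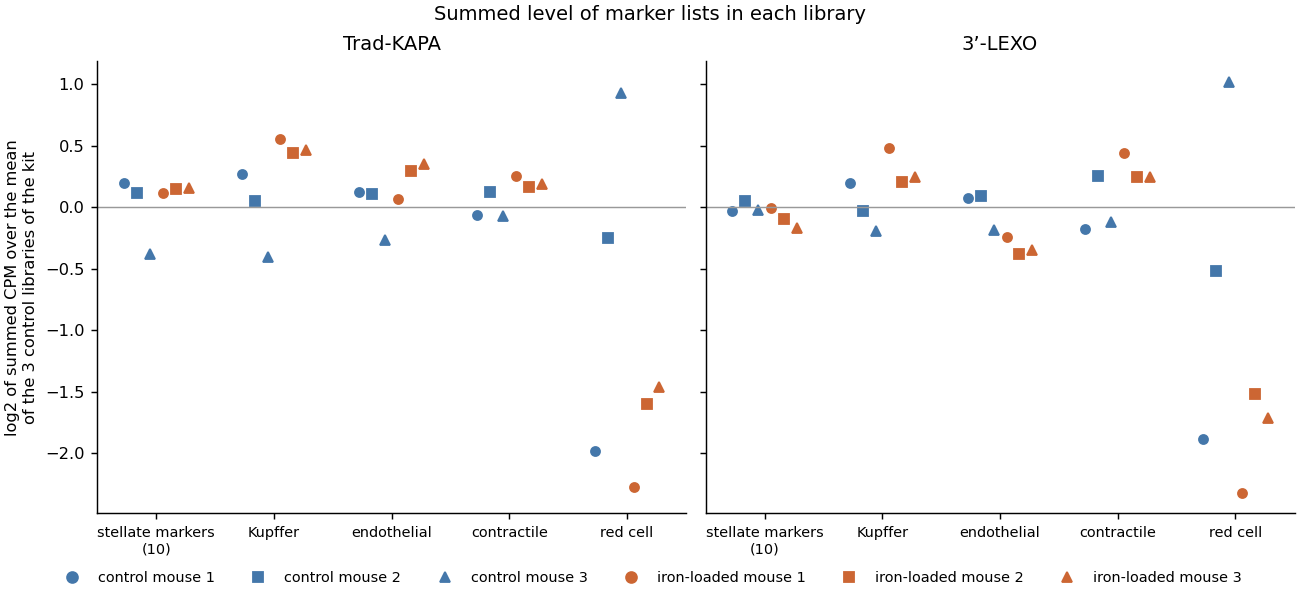
Summed CPM of the 10 stellate genes and of 4 other lists in each library, as the log2 ratio to the mean of the 3 control libraries of the same kit, with colours and symbols for diet and mouse. Control mouse 3 is the lowest point for the stellate, Kupffer and endothelial lists in Trad-KAPA and for the Kupffer list in 3’-LEXO. It is the highest for red cell genes in both kits.

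The kits read the same RNA, so each gene's CPM could be compared within a mouse. In the paper, Trad-KAPA counts rose with transcript length and 3’-LEXO counts showed no clear change. The paper divided Trad-KAPA counts by length before setting the kits side by side. This was not done here, so the differences below also hold transcript length. Of the 10 genes, 6 were called between kits (edgeR, over the 12 libraries with diet in the model), beside 76.5% of 14384 genes. Tgfb1 was the most different. It had 18.4 ± 3.29 CPM in Trad-KAPA (SD, n = 6 mice) and 2.64 ± 0.422 in 3’-LEXO, a 6.89-fold higher level in Trad-KAPA in 6 of 6 mice (log2 difference -2.79 ± 0.13, adjusted p = 3.33e-10). Hgf was 3.14-fold higher in Trad-KAPA (log2 difference -1.65 ± 0.14, adjusted p = 7.80e-08) and Reln 1.96-fold (log2 difference -0.97 ± 0.13, adjusted p = 8.74e-06), each in 6 of 6 mice. Lum was 1.47-fold higher in Trad-KAPA (log2 difference -0.56 ± 0.17, adjusted p = 0.00806), in 5 of 6 mice.

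Dcn and Des went the other way. Dcn was 2.44-fold higher in 3’-LEXO (log2 difference 1.29 ± 0.08, adjusted p = 4.50e-09, edgeR), in 6 of 6 mice, with log2 ratios from 1.09 to 1.61. Des was 1.32-fold higher there (log2 difference 0.40 ± 0.13, adjusted p = 0.0148, edgeR) in 5 of 6 mice, and this call was lost without a filter on low counts and without control mouse 1 or iron-loaded mouse 3 (adjusted p up to 0.0694). Acta2 (log2 difference 0.45 ± 0.30, adjusted p = 0.177), Lrat (log2 difference 0.10 ± 0.10, adjusted p = 0.398), Vim (log2 difference 0.10 ± 0.15, adjusted p = 0.557) and Pdgfrb (log2 difference 0.05 ± 0.12, adjusted p = 0.693) were not called, and their 95% intervals ran from -0.19 to 1.09, -0.12 to 0.32, -0.22 to 0.41 and -0.21 to 0.32. With the mouse as a block Acta2 was called too (adjusted p = 0.0046, edgeR, replicate block).

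**Figure D4:**
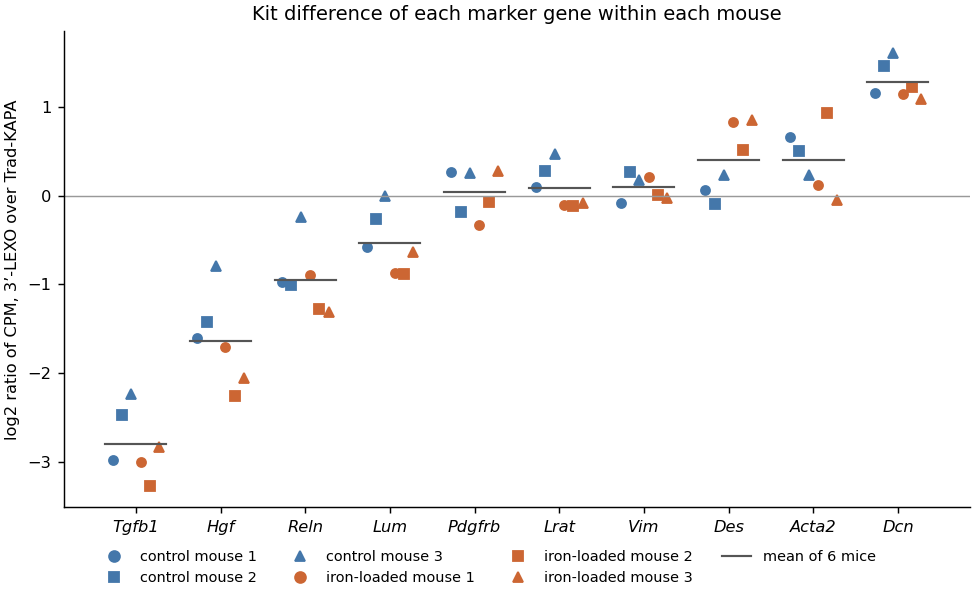
Log2 ratio of CPM in 3’-LEXO over Trad-KAPA for each gene within each mouse, ordered by the mean of 6 mice (line), with colours for diet and symbols for mouse number. Tgfb1, Hgf and Reln lie below 0 and Dcn above 0 in every mouse, and the 3 iron-loaded mice of Hgf lie below the 3 control mice.

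The sequence ends shown above stand beside these ratios as a description. Tgfb1, with the G- and C-rich end and ATTAAA, had log2 ratios from -3.27 to -2.23. Of 21 tested genes whose last 300 bases were at least 65% G or C, 4, Tgfb1 included, had a kit difference as low as that of Tgfb1 or lower. The share was 7.01% of 884 genes from 55% to 65% and 3.08% of 4088 genes from 45% to 55%. It was 1.86% of 4834 genes from 35% to 45% and 1.80% of 2719 genes below 35%. The median kit difference on the log2 scale was -0.48 in the group at 65% or more, and -0.46, -0.16, 0.06 and -0.05 in the others in this order. A part of base composition in the kit difference was not tested. Hgf and Acta2 shared the lack of both hexamers, but Hgf was lower and Acta2 was not called lower in 3’-LEXO. Reln has the longest principal transcript of the 10 genes, at 11699 bases, and Dcn the shortest, at 1758.

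Levels of different genes were compared in Trad-KAPA only per length, as CPM per kilobase of merged exons. On the control diet Dcn was the highest at 20.6 ± 2.17 (SD, n = 3), clear of all others. Reln (5.4 ± 1.64), Lum (4.61 ± 1.62), Vim (4.05 ± 1.21), Lrat (3.54 ± 0.264), Pdgfrb (3.23 ± 0.435), Tgfb1 (3.17 ± 0.514), Acta2 (3.13 ± 1.5), Des (1.87 ± 0.456) and Hgf (1.49 ± 0.388) followed, and each overlapped the next in this order. On the iron-loaded diet Dcn was at 24.6 ± 1.78 and Des the lowest at 1.13 ± 0.0536, clear of Acta2 at 2.17 ± 0.162. The order depends on the length used. By the principal transcript alone Dcn was at 68.5 ± 7.19 on the control diet and Tgfb1 moved from the seventh to the fourth place.

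In 3’-LEXO, where a transcript gives reads from its end, CPM were not divided by length. Dcn was again the highest on the control diet (319.6 ± 18.9 CPM) and Reln followed (74.3 ± 3.74), each clear of the next. Lrat, Vim and Pdgfrb formed a group with overlapping ranges between 14.3 and 27.1 CPM. Acta2, Lum and Des overlapped below them, and Hgf (4.33 ± 0.0611) and Tgfb1 (2.71 ± 0.469) had the lowest means. Hgf was clear of Tgfb1, Lum and Des, but the range of Acta2, from 3.83 CPM in control mouse 3 to 13.8, spanned that of Hgf. The low places depend on the kit, as Tgfb1 and Hgf had 6.89-fold and 3.14-fold higher CPM in Trad-KAPA. Dcn ranked first and Reln second in both kits and both diets.

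Other genes of the same cells and pathways were counted by lists. Beside these counts, 17.1% of all genes tested were called in Trad-KAPA (8.77% higher and 8.37% lower). The 3’-LEXO share was 6.10% (3.17% higher and 2.92% lower). Of 16 further stellate markers, such as Rgs5, Hand2 and Lhx2, 2 were called lower in Trad-KAPA and 0 in 3’-LEXO. Ngfr, the p75 neurotrophin receptor of stellate cells, was at 7.07, 7.64 and 6.65 CPM on the control and 1.64, 4.3 and 3.88 on the iron-loaded diet in Trad-KAPA (log2 fold change -1.17 ± 0.32, adjusted p = 0.0389, edgeR). It was at 11.2, 11.1 and 11.5 and 3.6, 7.09 and 7.09 CPM in 3’-LEXO, separate but just past the limit (log2 fold change -0.99 ± 0.26, adjusted p = 0.0546). Sod3, the extracellular superoxide dismutase, was at 52.4, 58.7 and 44.2 and 27.3, 38 and 39.5 CPM in Trad-KAPA (log2 fold change -0.63 ± 0.17, adjusted p = 0.0397, edgeR). Both calls were lost without any 1 of the control mice or without iron-loaded mouse 3, and that of Sod3 without iron-loaded mouse 2 too (adjusted p up to 0.128, edgeR), and without control mouse 3 0 of the 16 were called.

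Among 10 tested genes of vitamin A handling, besides Lrat, Cyp26b1 had the largest change. It encodes an enzyme that breaks down retinoic acid and it is expressed in stellate cells. In Trad-KAPA it was at 6.16, 5.36 and 4.55 CPM on the control diet and 42.8, 23.2 and 24.1 on the iron-loaded diet. In 3’-LEXO it was at 32.7, 20.8 and 36.2 and 193, 78.3 and 94.9 CPM. All iron-loaded values were above all controls, with iron-loaded mouse 1 the highest in both kits, and it rose in both (log2 fold change 2.40 ± 0.24, adjusted p = 0.00149 and log2 fold change 1.95 ± 0.33, adjusted p = 0.0123, edgeR). Rdh10, which oxidizes retinol toward retinoic acid, fell in Trad-KAPA from 36.8, 34.2 and 36.4 to 22.6, 28 and 27 CPM (log2 fold change -0.53 ± 0.13, adjusted p = 0.0265) and was not called in 3’-LEXO (log2 fold change -0.36 ± 0.13, adjusted p = 0.13, edgeR). So 1 of the 10 was called higher and 1 lower in Trad-KAPA, and 1 higher in 3’-LEXO.

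Of the matrix and activation genes, which myofibroblasts express, 1 of 11 tested was called higher and 1 lower in Trad-KAPA, and 1 lower in 3’-LEXO. Col5a1, a fibril collagen chain, was the gene called in both kits, at 26.3, 21.4 and 19.3 CPM on the control and 16.4, 16.1 and 16.5 on the iron-loaded diet in Trad-KAPA (log2 fold change -0.52 ± 0.13, adjusted p = 0.0276) and lower in 3’-LEXO too (log2 fold change -0.96 ± 0.23, adjusted p = 0.039, edgeR). Ccn2, connective tissue growth factor, rose in Trad-KAPA from 4.95, 3.08 and 4.41 to 7.57, 11.9 and 12.4 CPM (log2 fold change 1.29 ± 0.26, adjusted p = 0.0164, edgeR). In 3’-LEXO it did not pass (log2 fold change 1.10 ± 0.45, adjusted p = 0.167, edgeR). The chains of collagen I and III, Col1a1, Col1a2 and Col3a1, had estimates below 0 in both kits, from -1.15 to -0.46, and none was called. The list as a whole was mixed. In Trad-KAPA 6 of its 11 estimates were below 0, with a median of -0.02, and in 3’-LEXO 7 of 11, with a median of -0.22.

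The list of TGF-beta ligands, receptors, mediators and targets, without Tgfb1, had 5 of 19 tested genes called higher and 1 lower in Trad-KAPA, and 3 of 18 higher in 3’-LEXO. Of all genes tested, 8.77% were called higher and 8.37% lower in Trad-KAPA, and 3.17% higher in 3’-LEXO. Smad7, an inhibitor that TGF-beta signalling itself induces, was at 23.6, 11.5 and 13.3 CPM in the Trad-KAPA control libraries and 34.1, 74.7 and 75.8 in the iron-loaded ones, and iron-loaded mice 2 and 3 were far above mouse 1. It rose in both kits (log2 fold change 1.88 ± 0.36, adjusted p = 0.0139 and log2 fold change 1.58 ± 0.39, adjusted p = 0.0428, edgeR). Skil, which encodes the SMAD corepressor SnoN, rose from 10.1, 9.24 and 10.3 to 31.6, 23.5 and 24 CPM in Trad-KAPA (log2 fold change 1.34 ± 0.14, adjusted p = 0.00167) and was also called in 3’-LEXO (log2 fold change 0.88 ± 0.20, adjusted p = 0.0349, edgeR). Tgfbr1, the type I receptor, rose from 21.6, 20.6 and 21.7 to 54.4, 42.2 and 43 CPM in Trad-KAPA (log2 fold change 1.05 ± 0.11, adjusted p = 0.00197) and in 3’-LEXO (log2 fold change 0.80 ± 0.19, adjusted p = 0.0408, edgeR). The other calls in Trad-KAPA were Ccn2, which is on this list too, and Smad2 (higher) and Smad3 (lower), the last pair named after their values were seen. Without control mouse 3 the list had 4 calls in Trad-KAPA and 0 in 3’-LEXO. Smad7 is also a known BMP target, and these genes are expressed by many liver cells.

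**Figure D5:**
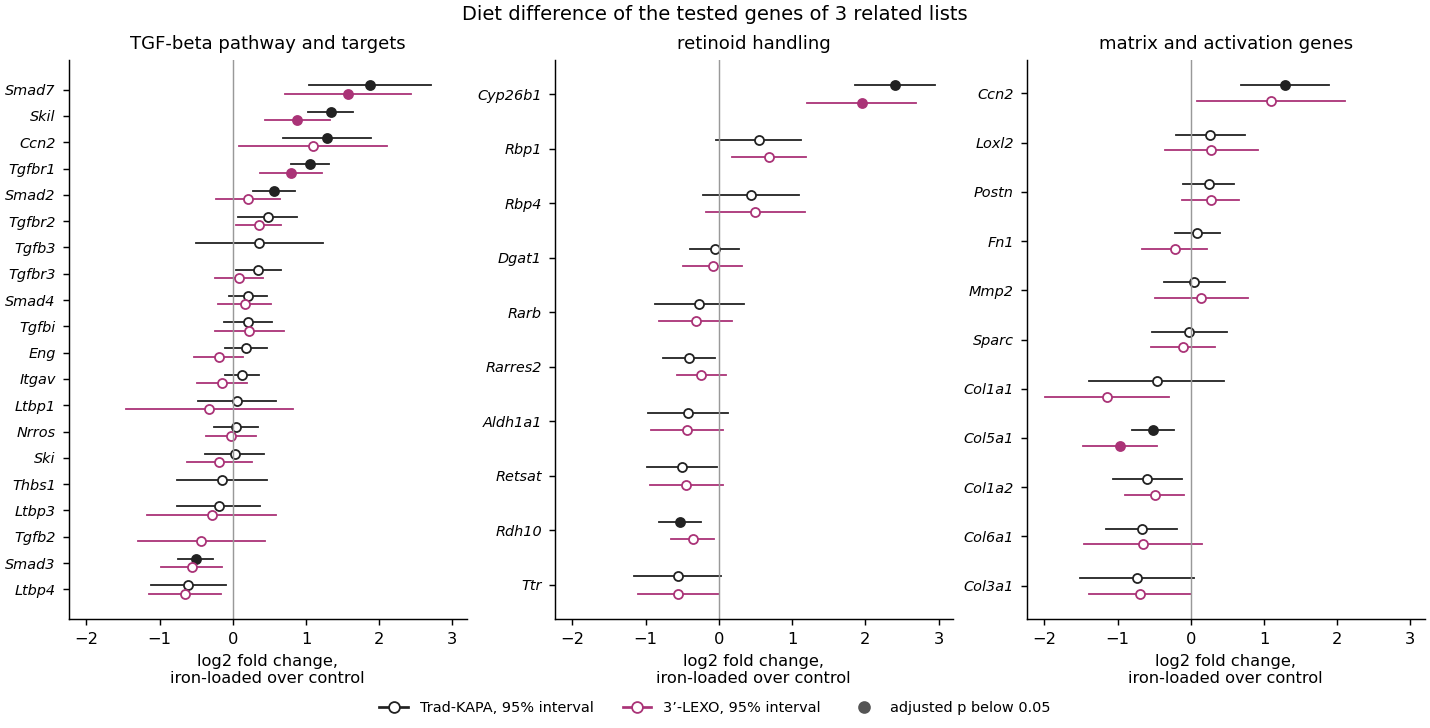
Log2 fold change of iron-loaded over control for the tested genes of the TGF-beta, retinoid and matrix lists, with 95% intervals from edgeR, Trad-KAPA in black and 3’-LEXO in purple, filled where the adjusted p was below 0.05 and ordered by the estimate in Trad-KAPA where the gene was tested there. Smad7, Skil, Tgfbr1, Cyp26b1 and Col5a1 are filled in both kits.

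Few calls were made among the partners of the other signalling genes. Of the PDGF ligands and Pdgfra, 0 of 5 tested genes were called in Trad-KAPA and 0 of 4 in 3’-LEXO. Of the HGF receptor Met and the proteases and inhibitors that control HGF activation, 0 of 6 and 0 of 5 were called. Met itself was at 117, 118 and 129.7 CPM on the control and 115, 137 and 145 on the iron-loaded diet in Trad-KAPA (log2 fold change 0.06 ± 0.14, adjusted p = 0.804, edgeR). Among smooth muscle and contractile genes, 1 of 8 was called in each kit, Tpm1, a tropomyosin gene that is widely expressed, which rose in Trad-KAPA (log2 fold change 0.63 ± 0.12, adjusted p = 0.0137) and in 3’-LEXO (log2 fold change 0.62 ± 0.16, adjusted p = 0.04998, just under the threshold, edgeR). Of the small leucine-rich proteoglycans and dermatopontin, 1 of 4 tested was called in Trad-KAPA and 0 of 4 in 3’-LEXO. This was Dpt, dermatopontin, which binds decorin, and it fell from 6.52, 5.43 and 3.54 to 2.57, 2.53 and 2.73 CPM (log2 fold change -1.05 ± 0.24, adjusted p = 0.0224, edgeR). Other intermediate filament and linker genes had 0 of 7 called in Trad-KAPA and 0 of 6 in 3’-LEXO. These counts are read against the 17.1% and 6.10% of all genes tested.

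Some of these list calls were lost when 1 mouse was left out. Such fits have fewer samples, and over all genes they called 841 to 2803 in Trad-KAPA and 199 to 871 in 3’-LEXO. With all mice these counts were 2255 and 811, so a lost call need not rest on the mouse left out. In Trad-KAPA the calls of Cyp26b1, Skil and Tgfbr1 were kept whichever mouse was left out. Those of Ccn2, Tpm1 and Smad7 were lost without control mouse 2 or 3 (adjusted p up to 0.0624, edgeR), that of Rdh10 without any control mouse or iron-loaded mouse 3, and those of Col5a1, Dpt and Smad2 without control mouse 1 or 2 or iron-loaded mouse 2 or 3, and that of Smad3 without the first 3 of these. The call of Dpt was also lost at 10000000 counts per library (adjusted p = 0.0678, edgeR). In 3’-LEXO the call of Cyp26b1 was lost without control mouse 1 or 2 (adjusted p up to 0.0568), and those of Smad7, Skil, Tgfbr1 and Col5a1 each without 5 of the 6 mice in turn and that of Tpm1 without any of them (up to 0.166, edgeR).

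Some markers of the other cells of the liver were called between diets too. The counts here and for the lists that follow stand beside 17.1% of all genes called in Trad-KAPA (8.77% higher and 8.37% lower). In 3’-LEXO the share was 6.10% (3.17% higher and 2.92% lower). In Trad-KAPA 2 of 7 Kupffer cell markers were called higher, and their summed level was 369 to 591 CPM in control and 666 to 719.7 in iron-loaded libraries. Marco, a scavenger receptor, was the one called in both kits (log2 fold change 3.10 ± 0.29, adjusted p = 0.00143 and log2 fold change 2.82 ± 0.33, adjusted p = 0.00233, edgeR), and Vsig4 the other in Trad-KAPA. Of recruited macrophage markers 4 of 6 were called higher in Trad-KAPA and 3 of 7 in 3’-LEXO, with sums of 28.8 to 50.7 and 71 to 96.7 CPM in Trad-KAPA. Gpnmb and Lyz2 were called in both, Itgax and Trem2 in Trad-KAPA and S100a4, named after its values were seen, in 3’-LEXO. The call of Lyz2 was lost without control mouse 2 in Trad-KAPA (adjusted p = 0.0679) and without any control mouse or iron-loaded mouse 3 in 3’-LEXO (adjusted p up to 0.134, edgeR). Gpnmb was at 0.181, 0.201 and 0.289 CPM in the Trad-KAPA control libraries and 9.85, 2.66 and 3.88 in the iron-loaded ones. Of 8 endothelial markers 3 were called higher in Trad-KAPA (Lyve1, Cdh5 and Stab1), and in 3’-LEXO 1 higher (Lyve1, log2 fold change 1.16 ± 0.28, adjusted p = 0.0435) and 1 lower (Stab2, log2 fold change -0.60 ± 0.13, adjusted p = 0.0307, edgeR). Without control mouse 3 the endothelial list had 1 call in Trad-KAPA (Lyve1) and 0 in 3’-LEXO. Cdh5 and Stab1 were lost when any 1 mouse other than iron-loaded mouse 1 was left out (adjusted p up to 0.131), and so was Stab2 in 3’-LEXO (up to 0.0911), where Lyve1 was lost without any control mouse or iron-loaded mouse 1 (up to 0.146, edgeR). The endothelial sum was 358 to 470.4 CPM in control and 452 to 549 in iron-loaded Trad-KAPA libraries, and 370.1 to 450.2 and 325 to 358 in 3’-LEXO.

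Portal fibroblast markers, which bear on Dcn and Lum, had 1 of 5 called lower in Trad-KAPA (Gas6, log2 fold change -1.05 ± 0.26, adjusted p = 0.0301, edgeR) and 0 of 5 in 3’-LEXO. Their sum was 56.8 to 113 CPM on the control and 43.9 to 57.2 on the iron-loaded diet in Trad-KAPA, and Gas6 made up most of it. The other 4 markers, Thy1, Eln, Fbln2 and Entpd2, had estimates from -0.15 to 0.29 in Trad-KAPA, and the median of the list was 0.05 there, with 2 of 5 below 0, and -0.26 in 3’-LEXO, with 3 of 5 below 0. The call of Gas6 was lost without control mouse 1 or 2 or iron-loaded mouse 3 (adjusted p up to 0.0975, edgeR). Of the bile duct markers 1 of 3 was called higher in each kit (Spp1), of the hepatocyte markers 0 of 6 in Trad-KAPA and 1 of 6 in 3’-LEXO (Tat, log2 fold change 0.95 ± 0.24, adjusted p = 0.0477), and of lymphocyte markers 0 of 5 and 0 of 3. In 3’-LEXO Tat was lost without any 1 of the 6 mice (adjusted p up to 0.142) and Spp1 without any control mouse or iron-loaded mouse 3 (up to 0.0842, edgeR). Red cell genes had 0 of 4 called in each kit, with medians of -1.86 and -1.90 on the log2 scale, and without control mouse 1 there were 4 calls by Trad-KAPA and 2 by 3’-LEXO. Mesothelial markers were near 0, with sums of 0.725 to 2.39 and 0.888 to 1.29 CPM in Trad-KAPA, and none was tested there. The part of these cells in the values of the 10 stellate genes was not tested.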

How the data were processed

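The authors mapped single-end 50 bp reads with STAR 2.5.3a to GRCm38 and deposited raw counts per gene of exonic reads with a unique position, duplicates included. The counting program and annotation release are not given in the sources used here. Gene symbols, positions, lengths and transcript ends were looked up in GENCODE M21, where 26940 of 27022 identifiers were found.

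The quasi-likelihood test of edgeR 4.0.16 (under R 4.3.3 with limma 3.58.1) was applied to the counts with TMM normalization and filterByExpr, over all genes within each kit, with Benjamini-Hochberg adjustment and a threshold of 0.05. Kit and the interaction of diet and kit were tested over the 12 libraries. The fits were tested on simulated counts. Alternatives were DESeq2 1.42.0, its size factors, other filters, 10000000 counts per library, the replicate number or mouse as a block, and each mouse left out. On CPM the median diet difference of all genes (log2) was 0.08 for Trad-KAPA and 0.06 for 3’-LEXO, and after TMM 0.02 and 0.01. Libraries of one number come from the same RNA stock in both kits, and their deviations from the group means correlated (r = 0.456 to 0.793 over 9311 genes for the 6 mice). Intervals of the diet fits within a kit cover the spread between mice. The main kit and interaction fits took the 12 libraries as separate samples, so their intervals leave out the pairing by mouse. Python 3.11.15, pandas 2.3.3, numpy 2.4.6 and matplotlib 3.10.9 were used for the rest.

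All 10 genes are named, and of the other lists the called genes, at most 4 per list with the largest change in Trad-KAPA, those called in both kits first. Smad2, Smad3, S100a4, Met, Myh11, the collagen I and III chains and the other portal fibroblast markers were named after their values were seen. A gene of the lists is not reported here and was left out of their counts. No gene was called in both kits among the 10, so none was sought with a like pattern. The members and lists were chosen with earlier results of these data known.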

Additional observations from a re-analysis of the deposited data

How the results depend on the processing

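Of the tests on the 10 genes under alternative settings, 445 kept their direction and side of the threshold, 11 lost and 5 gained significance and 19 turned, all of the last with estimates near 0 that were never called. Leaving out 1 mouse, Trad-KAPA called 841 to 2803 genes and 0 to 2 of the 10 (2255 and 2 with all mice), and 3’-LEXO 199 to 871 and 0 (811 and 0). In Trad-KAPA the 0 came without control mouse 2, iron-loaded mouse 2 or iron-loaded mouse 3, and 1 (Hgf) without control mouse 1. In 3’-LEXO DESeq2 called 1313 genes, edgeR without a filter 2040 with 1 of the 10 (Acta2), and the replicate block 436. The interaction called 7 genes without a filter and 5 with the replicate block, and 0 when any 1 mouse was left out. The cause of these differences was not tested. Across diets the replicate numbers share only a number (r from -0.172 to 0.104), and the block left Des and Hgf called in Trad-KAPA.

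Leaving out 1 mouse, the diet estimate in Trad-KAPA ran from -0.055 to 0.11 for Lrat, from -0.25 to 0.099 for Reln and from -0.24 to 0.19 for Lum, which was 0.031 with the replicate block. The difference of diet effects ran from -0.46 to 0.072 for Acta2, from -0.32 to 0.014 for Pdgfrb and from -0.12 to 0.057 for Vim, and the kit difference of Pdgfrb from -0.043 to 0.10, and it was -0.0025 without a filter. Of the 10 genes 5 to 7 were called between kits. The count of the TGF-beta list was 2 to 8 in Trad-KAPA and 0 to 2 in 3’-LEXO without 1 mouse. For levels per kilobase, the length of the principal transcript was added as an alternative after seeing the data. With 24 to 44 reads per library, Tgfb1 in 3’-LEXO had a 95% interval of -0.75 to 0.48. At 10000000 counts per library the calls of Dpt and Cdh5 in Trad-KAPA and of Skil and Lyve1 in 3’-LEXO were lost. The replicate block lost those of Stab1 and Cdh5 in Trad-KAPA and of Col5a1, Tpm1, Tgfbr1, Smad7, Skil, Tat, Lyz2, Stab2, Lyve1 and Spp1 in 3’-LEXO.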
